A study of Drosophila melanogaster with 5 samples.

Results

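The odorant-binding protein family was described in heads of Drosophila melanogaster pupae at 80 h after pupa formation. Its members were the genes whose symbol starts with Obp, with lush and a10 added, and each was required to have an array probe set that names it alone. This gave 37 genes, 35 of them named Obp, out of 10844 genes with a probe set of their own. Each of the 37 had 1 such probe set. Another 16 of the 53 family genes in the RefSeq annotation, Obp83a, Obp49a and Obp22a among them, had no probe set to themselves and were not analysed here as members. Signals came from 3 arrays of otd-uvi, labelled as an eye-specific mutant allele of otd (orthodenticle, now oc), and from 2 arrays of Canton S, the wild-type strain. Each array held RNA from a separate extraction of 15 to 20 pooled pupal heads, and neither sex nor dissected head part is given. Each group was 1 strain, so the allele and the strain background cannot be told apart.

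Odorant-binding proteins are small secreted proteins with a fold held together by disulfide bridges. Support cells of olfactory and taste hairs release them into the fluid around the sensory dendrites, where they bind odorants and pheromones. Several members are made outside the sense organs, in glia, fat body or the male reproductive tract. The product of a10 belongs to a separate family of antennal chemosensory proteins. The product of otd is a homeodomain transcription factor known from the development of the head and of photoreceptors.

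No family gene differed between otd-uvi and Canton S past an adjusted p of 0.05 in limma, where 0.773% of all 13966 probe sets were called (0.322% rose and 0.451% fell). Of the 37 genes, 21 had a log2 difference above 0 and 16 one below 0, and the median was 0.09, beside a median of 0.05 over all probe sets, of which 55.2% were above 0. The number above 0 was 19 under quantile normalization and 18 under cyclic loess. The differences ran from -0.999 for Obp69a to 1.24 for Obp59a, and the smallest adjusted p was 0.132, for Obp50e. Each log2 difference is the otd-uvi mean minus the Canton S mean of log2(signal + 8), a scale that understates changes of dim genes. An unadjusted limma p under 0.05 was reached by 2 genes, or 5.41% of the family, against 15.0% of all probe sets. The groups did not overlap on any array for 5 genes, or 13.5%, against 34.0% of all probe sets. The 95% interval lay wholly between -1 and 1 for 20 of the 37 genes and for 8308 of all 13966 probe sets. For the other 17 family genes the arrays thus do not set a bound of 2-fold on this scale. For genes with signals under 8 the added 8 itself narrows the interval, so it sets no bound of 2-fold on their signal. In bulk heads, fewer cells of a type and less RNA per cell cannot be told apart.

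**Figure D1:**
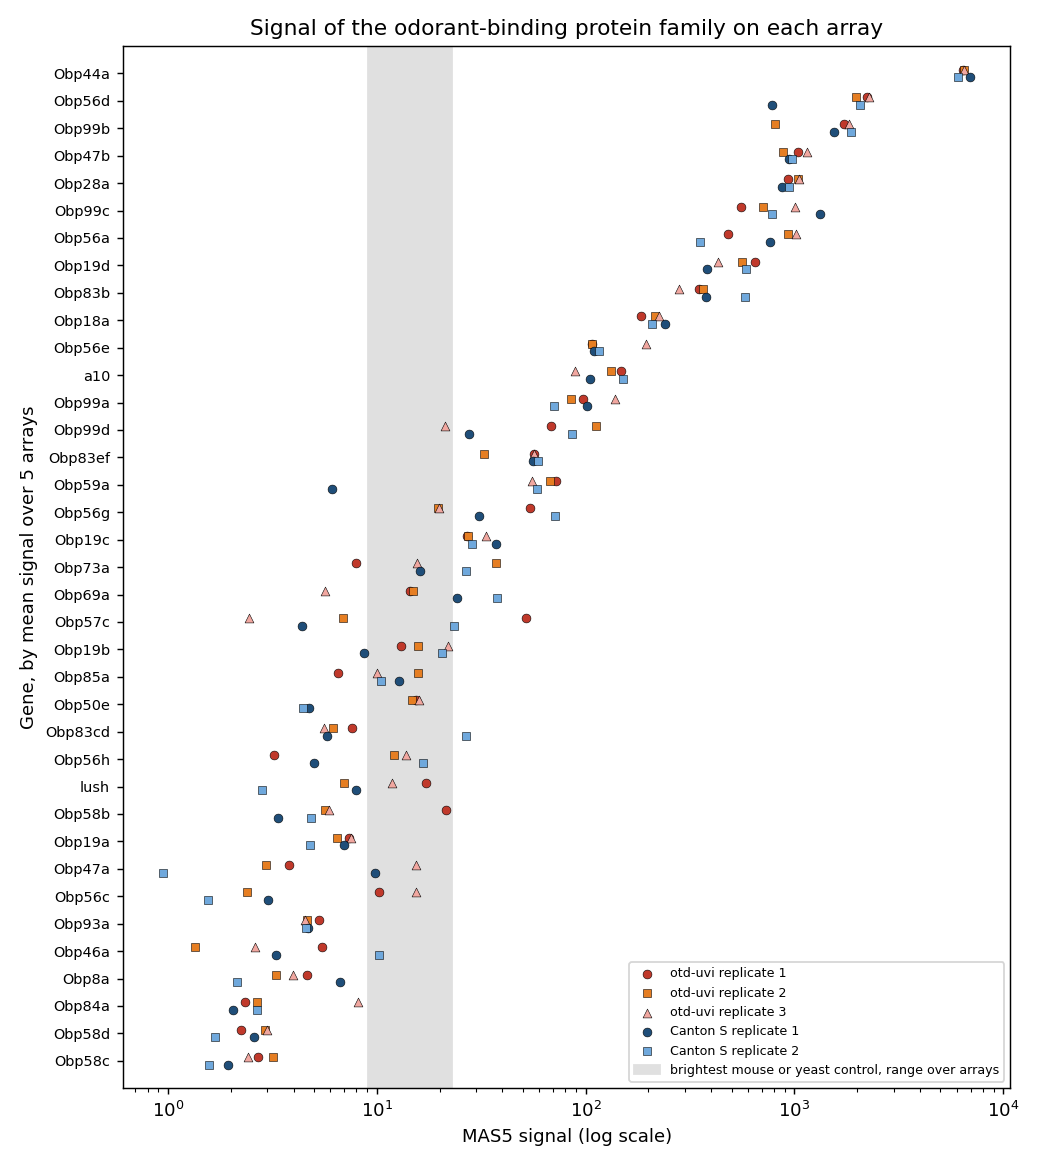
MAS5 signal on a log scale for the 37 genes of the family, ordered by mean signal. Each point is 1 array (otd-uvi in red and orange, Canton S in blue), and the grey band spans the brightest mouse or yeast control over the 5 arrays, 9.13 to 22.9. Obp44a lies at 6081 or higher on every array, and 17 genes exceed, on every array, the brightest control of that same array. Obp99d and Obp56g are among the 17 and have points inside the band.

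The family spanned nearly the whole range of signals on the array. Of the 37 genes, 9 were in the top decile of probe sets by mean signal, and 16 were in the lowest 3 deciles. The 8 probe sets for mouse and yeast genes, to which no fly transcript should bind, gave the level of background: the brightest of them read 22.9, 11.2 and 16.2 on the otd-uvi arrays and 9.30 and 9.13 on the Canton S arrays. Against the brightest control of the same array, 17 genes were higher on all 5 arrays, 11 on some and 9 on none. Over all probe sets 59.0% were higher on all 5 and 15.5% on none, whereas the family had 45.9% and 24.3%. Of the 17 genes, 8 had a log2 difference above 0 and 9 one below 0, with a median of -0.01. The 11 had 5 above 0 and 6 below, with a median of -0.08. Of the 9 genes, 8 were above 0, with a median of 0.14. Over all probe sets the median was 0.11 to 0.27 in the lowest 4 deciles of mean signal and -0.09 in the top decile. For 11 of the 17 the 95% interval lay wholly between -1 and 1, as it did for 5454 of the 8240 probe sets above the controls on all 5 arrays. The 10 brightest genes were Obp44a, Obp56d, Obp99b, Obp47b, Obp28a, Obp99c, Obp56a, Obp19d, Obp83b and Obp18a, in that order of mean signal. All 10 stayed among the 10 brightest of the family on each array. Together they carried 95.02% of the family's summed signal. This order is one of probe set signals, which depend on the binding strength of each probe as well as on RNA, and it is not scaled per length.

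Obp44a, a member known from glia of the nervous system, was the brightest gene. Its signals were 6436, 6489 and 6452 on the otd-uvi arrays and 6934 and 6081 on the Canton S arrays, higher than 99.9% of probe sets. The otd-uvi values lay close together, between both Canton S values. The log2 difference was -0.01 (SE 0.12, 95% interval -0.28 to 0.27, adjusted p = 0.981). All 5 measured glial markers were above the controls on every array and none passed the test. Of these, repo, moody and wrapper had log2 differences of 0.09, 0.003 and 0.13 with overlapping groups. The astrocyte gene alrm, at 949, 870 and 959 in otd-uvi and 1069 and 967 in Canton S, had -0.14 (adjusted p = 0.630). The glutamine synthetase gene Gs2, at 1395, 1646 and 1334 in otd-uvi and 1822 and 2431 in Canton S, had -0.53 (unadjusted p = 0.0138, adjusted p = 0.219 in limma). For alrm and Gs2 every otd-uvi array was below both Canton S arrays.

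Genes known from antennal sensilla ranged from bright to background. Obp28a, an abundant protein of the antenna also called Pbprp5, had 933, 1038 and 1053 in otd-uvi and 876 and 942 in Canton S. The groups overlapped, and the log2 difference was 0.15 (SE 0.12, 95% interval -0.14 to 0.43, adjusted p = 0.599). Obp83b, also known as OS-E and found in sensilla that respond to pheromones, had 348, 363 and 281 in otd-uvi and 376 and 579 in Canton S. Every otd-uvi array was below both Canton S arrays, but the gap to the nearest was small. The difference of -0.50 (SE 0.21, 95% interval -0.9996 to 0.0072) had an adjusted p = 0.338, and it was -0.19 without Canton S replicate 2. Its neighbour and close relative Obp83a, which lies next to it with no gene between, was not analysed here. The chemosensory protein gene a10 had 147, 133 and 88.9 in otd-uvi and 105 and 151 in Canton S, overlapping groups with a log2 difference of -0.06 (adjusted p = 0.934). Its sign turned under quantile normalization and cyclic loess.

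Obp69a, which takes part in social responses to a male pheromone, had the lowest difference of the family. It read 14.5, 14.9 and 5.65 in otd-uvi and 24.1 and 37.6 in Canton S. All otd-uvi values were below both Canton S values. Only 1 of the 3 otd-uvi arrays exceeded its brightest control, whereas both Canton S arrays did. The log2 difference was -0.999 (SE 0.35, 95% interval -1.82 to -0.18), with an unadjusted p = 0.0232 and an adjusted p = 0.256 in limma. It ranged from -1.25 to -0.75 without any 1 array, and no alternative setting brought it past the threshold.

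Obp59a, known from the sensing of humidity, had the highest difference. Signals were 72.3, 67.9 and 55.4 in otd-uvi and 6.14 and 58.8 in Canton S. Canton S replicate 1 stood apart from the other 4 arrays, which lay close together. The log2 difference was 1.24 (SE 0.60, 95% interval -0.16 to 2.65, adjusted p = 0.390 in limma). It was 0.12 without Canton S replicate 1 and 2.36 without Canton S replicate 2.

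The genes lush, Obp19a and Obp84a, also known from antennal sensilla, were at the level of the controls. Obp56d and Obp19d, which occur in olfactory organs too, were bright and are given with their rows below. The gene lush, whose product is needed for the response to the pheromone cVA, had 17.2, 6.99 and 11.9 in otd-uvi and 7.98 and 2.82 in Canton S. No array showed it above the brightest control, and its log2 difference of 0.57 (adjusted p = 0.423) was therefore measured within background. Obp19a gave 6.44 to 7.53 in otd-uvi and 6.97 and 4.78 in Canton S. Obp84a gave 2.33 to 8.13 in otd-uvi and 2.05 and 2.67 in Canton S. Neither exceeded the brightest control on any array. Of the 8 genes grouped here as antennal (these 3 with Obp28a, Obp59a, Obp69a, Obp83b and a10), 5 were above 0 and 3 below, with a median of 0.14. The 5 include lush, Obp19a and Obp84a, which were at background. Of the rest, Obp28a and Obp59a were above 0, and Obp69a, Obp83b and a10 were below.

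**Figure D2:**
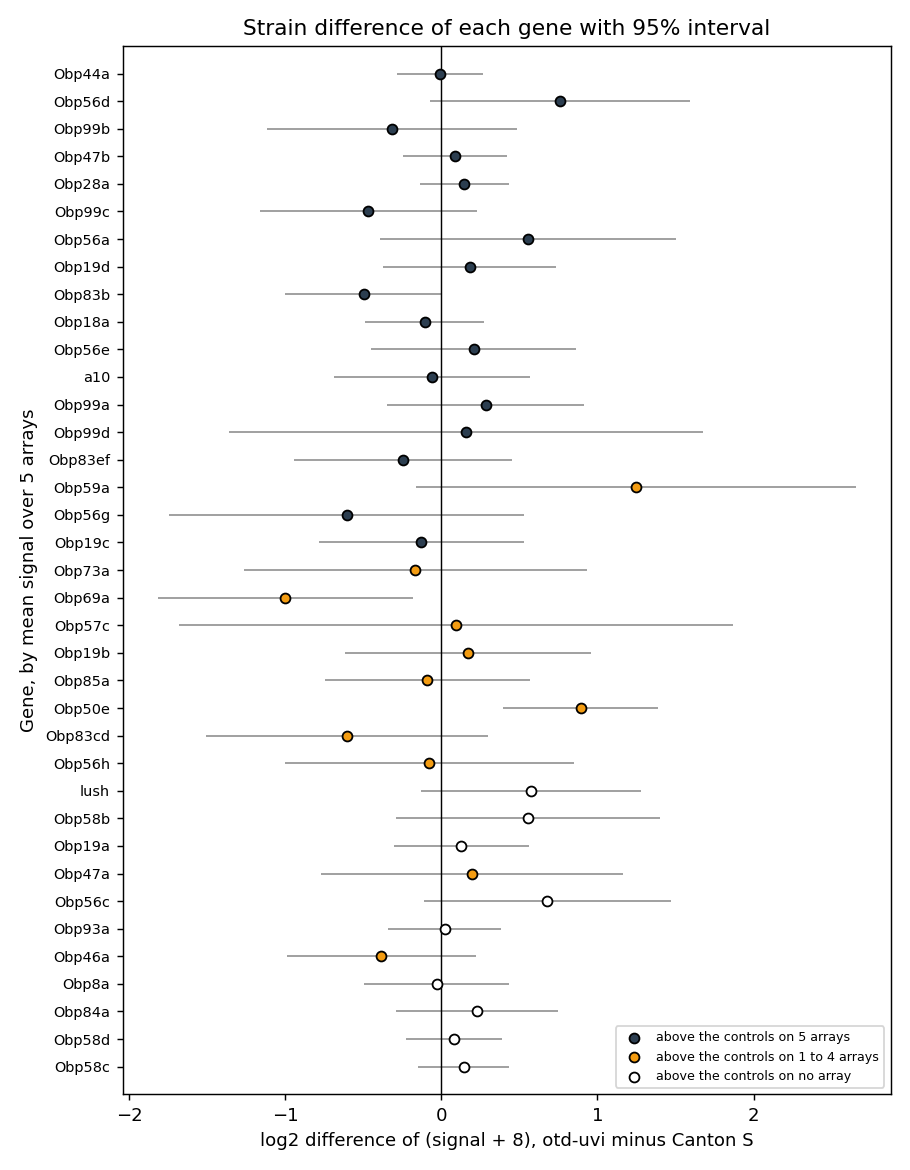
Log2 difference of (signal + 8), otd-uvi minus Canton S, for each gene of the family with its 95% interval from limma, ordered by mean signal. Filled dark points were above the brightest control on 5 arrays, orange points on 1 to 4 arrays and open points on none. The intervals of Obp69a and Obp50e alone leave out 0, before adjustment for the number of tests.

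The Obp56 genes lie in a row on the chromosome, Obp56a to Obp56f, and 4 of these 6 were measured. All 4 had a log2 difference above 0, with a median of 0.62, and none passed the test. Obp56d, a gene of taste organs and antennae, was the second brightest of the family at 2234, 1980 and 2267 in otd-uvi and 784 and 2060 in Canton S. Canton S replicate 1 was far below the other 4 arrays. The log2 difference was 0.76 (SE 0.35, 95% interval -0.08 to 1.59, adjusted p = 0.374), and it was 0.07 without Canton S replicate 1 and 1.45 without Canton S replicate 2. Obp56a, another gene of taste organs, had 478, 930 and 1023 in otd-uvi and 761 and 355 in Canton S. Here Canton S replicate 2 was the lowest, so Obp56a and Obp56d did not share their low array. Its difference was 0.56 (SE 0.40, adjusted p = 0.553), and 0.02 without Canton S replicate 2. Obp56e had 108, 108 and 194 in otd-uvi and 110 and 115 in Canton S, and its difference of 0.21 (adjusted p = 0.757) was -0.06 without otd-uvi replicate 3. Obp56c was above the controls on no array, at 2.40 to 15.4 in otd-uvi and 3.01 and 1.55 in Canton S.

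Farther along the same chromosome arm, Obp56g and Obp56h had differences below 0. Obp56g, whose protein is also a part of seminal fluid, had 54.4, 19.6 and 19.9 in otd-uvi and 30.7 and 71.1 in Canton S, a difference of -0.61 (adjusted p = 0.589). Obp56h, which has been linked to male mating behaviour, had 3.24, 12.1 and 13.8 in otd-uvi and 5.02 and 16.7 in Canton S, a difference of -0.08 (adjusted p = 0.945). Both sets of arrays overlapped. The seminal fluid gene Obp8a was at background on all arrays, at 3.31 to 4.62 in otd-uvi and 6.68 and 2.16 in Canton S. Of the 11 measured male accessory gland markers, 9 were likewise above the brightest control on no array and Acp95EF on 1. The exception was SP, the sex peptide gene, which was above it on all 5 arrays at 46.4, 50.8 and 49.7 in otd-uvi and 42.6 on both Canton S arrays (log2 difference 0.17, adjusted p = 0.770). The summed signal of all 11, SP included, was 88.8 to 104 in otd-uvi and 73.8 and 71.0 in Canton S. Apart from SP, this sum was mostly made of signals at the level of the mouse and yeast controls. The median of those controls was 7.22, 7.92 and 7.03 in otd-uvi and 3.69 and 3.07 in Canton S. The part of this background in the sum was not tested.

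The row of Obp99 genes was measured in full, and all 4 were above the controls on every array. Obp99b, also called tsx and known for a male-biased level in the fat body of the adult head, had 1732, 803 and 1826 in otd-uvi and 1551 and 1865 in Canton S. Only otd-uvi replicate 2 stood below the rest. The log2 difference was -0.32 (SE 0.34, 95% interval -1.12 to 0.49, adjusted p = 0.694), and it was 0.06 without that array. Of the 7 measured fat body markers, Lsp2, Fbp1 and apolpp were also lowest on that array, whereas Yp1, Yp2, Yp3 and fit were not. The summed signal of the 7, most of it from Lsp2 and Fbp1, was 3645, 1496 and 2546 in otd-uvi and 4649.5 and 3383 in Canton S, with Yp1 above the brightest control on 1 array, fit on none and no marker at 0. Lsp2, a storage protein gene, read 1585, 698 and 1241 in otd-uvi and 2198 and 1509 in Canton S. No marker passed the test in limma, and 2 had an unadjusted p under 0.05: Yp3 at -1.54 (adjusted p = 0.0731) and apolpp at -1.01 (adjusted p = 0.0566). The groups did not overlap for either, nor for Yp2, which was higher in otd-uvi at 0.39 (adjusted p = 0.543). The part of fat body in the level of Obp99b was not tested.

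Its neighbours did not share its order of arrays. Obp99c had 556, 706 and 1011 in otd-uvi and 1325 and 783 in Canton S, a difference of -0.47 (SE 0.30, adjusted p = 0.501) that was -0.09 without Canton S replicate 1. Obp99a had 96.7, 85.5 and 139 in otd-uvi and 101 and 70.4 in Canton S, a difference of 0.28 (adjusted p = 0.649). Obp99d had 68.6, 112 and 21.3 in otd-uvi and 27.6 and 86.2 in Canton S, a 5.26-fold range over the 5 arrays. The groups overlapped for all 4, and Obp99d had a residual SD higher than 99.5% of probe sets. Its difference was 0.16, with a 95% interval of -1.36 to 1.68.

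The Obp19 genes follow one another with no gene between. Obp19d, or Pbprp2, which occurs in taste and olfactory organs outside the fluid of the hairs, had 649, 564 and 429 in otd-uvi and 383 and 587 in Canton S. The values overlapped, and the difference was 0.18 (SE 0.24, 95% interval -0.37 to 0.74, adjusted p = 0.747). Obp19c was dim but above the controls on all arrays, at 27.2, 27.3 and 33.5 in otd-uvi and 37.2 and 28.6 in Canton S (log2 difference -0.13, adjusted p = 0.862). Obp19b lay across the level of the controls, at 13.02, 15.7 and 22.0 in otd-uvi and 8.72 and 20.6 in Canton S (log2 difference 0.17, adjusted p = 0.841). Thus 1 gene of this row was bright, 2 were dim and Obp19a was at background, and 3 of the 4 differences were above 0.

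Plus-C members, whose proteins carry additional cysteines, were mostly dim. Obp47b was the exception, at 1042, 882 and 1146 in otd-uvi and 945 and 971 in Canton S. Its groups overlapped, and its difference was 0.09 (SE 0.14, 95% interval -0.25 to 0.42, adjusted p = 0.805). The other 7 were above the brightest control on at most some of the arrays, and 6 of the 8 differences in this group were above 0. Obp50e had 15.4, 14.8 and 16.0 in otd-uvi and 4.72 and 4.46 in Canton S, so the arrays agreed closely within each group and the groups did not overlap. Only 1 of the 3 otd-uvi values, and neither Canton S value, was above the brightest control of its array. The log2 difference was 0.89 (SE 0.21, 95% interval 0.39 to 1.39), with an unadjusted p = 0.00374 and an adjusted p = 0.132 in limma. With a floor at 8 in place of the added 8 it was 0.94 with an adjusted p = 0.0296 in limma, the single setting in which a family gene passed. That floor replaced both Canton S values of Obp50e by 8, so they had no spread there. Probe sets of its brightness were as a whole higher in otd-uvi, with a median log2 difference of 0.27 over their decile (the third from the lowest mean signal), and the part of this shift in the value of Obp50e was not tested. The median signal of the mouse and yeast controls was 7.22, 7.92 and 7.03 in otd-uvi and 3.69 and 3.07 in Canton S.

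The genes Obp58b, Obp58c and Obp58d, which follow Obp59a directly on the chromosome, did not share its level. Obp58b read 21.6, 5.64 and 5.94 in otd-uvi and 3.38 and 4.87 in Canton S, while Obp58c and Obp58d stayed at or below 3.19 on every array. No value of the 3 exceeded the brightest control. Obp58b and Obp58c did not overlap between the groups, higher in otd-uvi, as was so for 18.6% of all probe sets. Their differences of 0.56 and 0.14 had adjusted p of 0.507 and 0.626 in limma. Obp46a (1.35 to 5.50 in otd-uvi, 3.31 and 10.3 in Canton S), Obp85a (6.53 to 15.8 in otd-uvi, 12.8 and 10.5 in Canton S) and Obp93a (4.53 to 5.32 in otd-uvi, 4.67 and 4.59 in Canton S) completed the group.

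Among the other members, Obp18a had 184, 215 and 224 in otd-uvi and 240 and 208 in Canton S, a difference of -0.11 (95% interval -0.49 to 0.28, adjusted p = 0.788). Both genes for fused double OBPs had differences below 0. For Obp83ef the signals were 56.8, 32.7 and 56.6 in otd-uvi and 55.9 and 59.5 in Canton S (log2 difference -0.24, adjusted p = 0.728). Obp83cd was at 5.58 to 7.60 in otd-uvi and 5.76 and 26.8 in Canton S, and its difference of -0.60 (adjusted p = 0.501) was 0.07 without Canton S replicate 2. Obp57c, of the taste-related Obp57 row, had 51.6, 6.92 and 2.44 in otd-uvi and 4.37 and 23.4 in Canton S, above the brightest control on 1 array of each strain, and the groups overlapped. Obp73a (7.92 to 37.3 in otd-uvi, 16.1 and 26.7 in Canton S) and Obp47a (2.96 to 15.3 in otd-uvi, 9.80 and 0.950 in Canton S) overlapped as well.

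**Figure D3:**
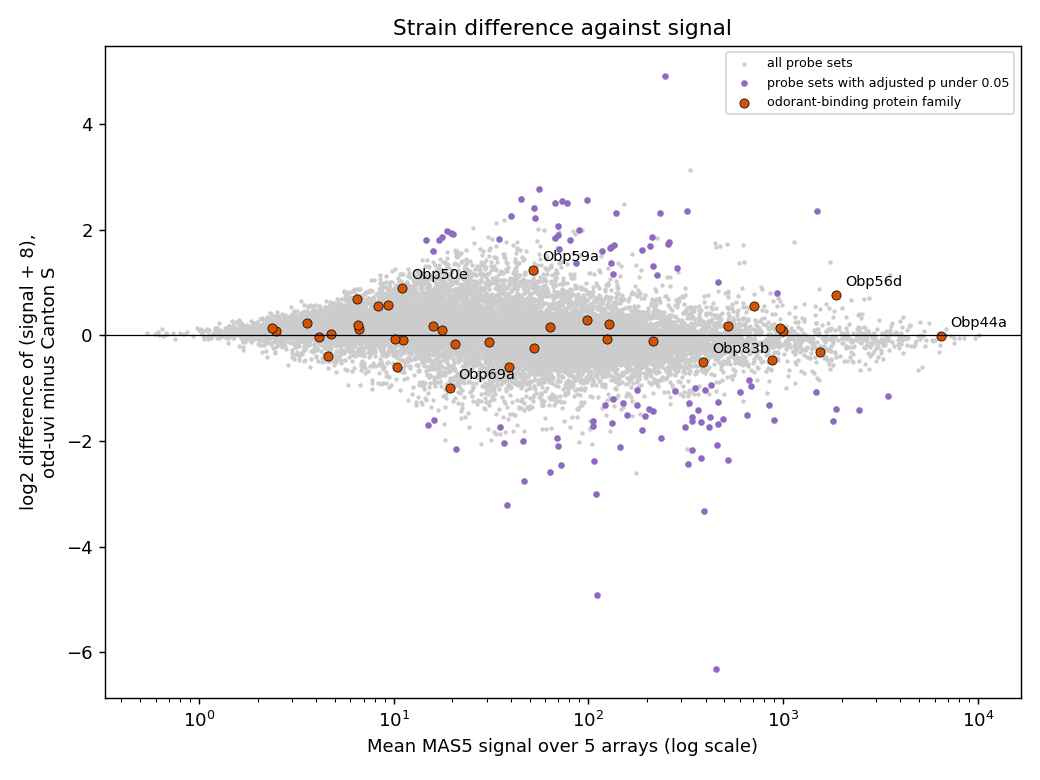
Log2 difference of (signal + 8), otd-uvi minus Canton S, against mean MAS5 signal on a log scale. Grey points are all 13966 probe sets, purple points the 108 with an adjusted p under 0.05, and orange points the 37 family genes. None of the family genes is among the purple points.

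The spread between arrays of the same strain was wide for this family. Among the 17 genes above the controls on all arrays, the 2 Canton S arrays were over 2-fold apart for 4 genes, or 23.5%, against 6.86% of all probe sets above the controls. The otd-uvi arrays were over 2-fold apart for 4 of the 17, also 23.5%, against 10.9%. For all 17 the range within at least 1 strain was larger than the difference between the strain means on the log2 scale, which held for 76.7% of all probe sets above the controls. Of the 17, 12 had a residual SD above the median of their own decile of signal, or 70.6%, against 47.0% of all probe sets above the controls. These counts are descriptions of 5 arrays and carry no test. The even genes were Obp44a, Obp47b, Obp28a and Obp18a, each with a ratio of 1.31 or less between its highest and lowest array. Among the 10 brightest the ratio was over 2 for Obp56d at 2.89, Obp56a at 2.88, Obp99c at 2.38, Obp99b at 2.32 and Obp83b at 2.06. Each was lowest on a different array: Canton S replicate 1 for Obp56d, Canton S replicate 2 for Obp56a, otd-uvi replicate 1 for Obp99c, otd-uvi replicate 2 for Obp99b and otd-uvi replicate 3 for Obp83b.

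**Figure D4:**
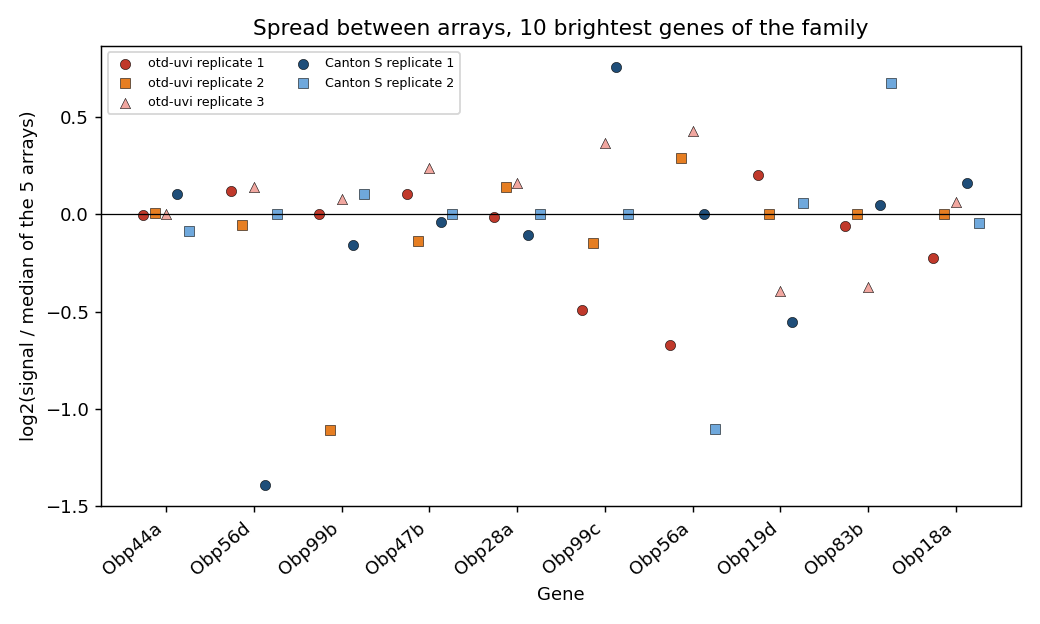
Signal on each array relative to the median of the 5 arrays, on a log2 scale, for the 10 brightest genes of the family. Each point is 1 array (otd-uvi in red and orange, Canton S in blue). Obp44a, Obp47b, Obp28a and Obp18a stay close to 0, and Obp56d, Obp99b and Obp56a each have 1 array at or below -1.

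A list of other genes of olfactory sensilla and of other chemosensory carriers, CheA75a and CheA87a among them, gave no call either. Of the 20 listed genes 17 were measured and 12 had a difference above 0. In limma 1 had an unadjusted p under 0.05, and the median log2 difference was 0.27. The gene with that p was Ir76b, a co-receptor of ionotropic receptors, at 21.6, 28.1 and 31.2 in otd-uvi and 8.79 and 13.3 in Canton S (log2 difference 0.88, adjusted p = 0.239). The groups did not overlap for Ir76b, though 1 otd-uvi array and 1 Canton S array were under their brightest control. Orco, the shared odorant co-receptor, had 37.4, 34.98 and 7.39 in otd-uvi and 11.3 and 7.83 in Canton S (log2 difference 0.83, adjusted p = 0.476). The 5 markers of olfactory neurons summed to 125, 139 and 85.8 in otd-uvi and 50.0 and 89.1 in Canton S. Only Snmp1 was above the controls on all 5 arrays, with overlapping groups and a log2 difference of 0.15. Orco and Ir76b were above them on 3 arrays, Ir25a on 1 and Ir8a on none. Over all probe sets, the deciles of signal that hold these 4 had median log2 differences of 0.20 to 0.27. The part of this shift in the sum was not tested. Antdh, an antennal dehydrogenase, had 292, 386 and 316 in otd-uvi and 144 and 300 in Canton S (log2 difference 0.64, adjusted p = 0.368). EbpIII, a chemosensory protein gene of the a10 kind, had 5722, 5610 and 5614 in otd-uvi and 5807 and 6260 in Canton S (log2 difference -0.09, adjusted p = 0.718). The 4 measured support cell markers had a median of 0.15 and none with an unadjusted p under 0.05. Carriers of other small ligands had 10 measured genes, none past the threshold in limma and 2 with an unadjusted p under 0.05. The first was Npc2a, a sterol carrier gene, with 311, 312 and 224 in otd-uvi and 573 and 653 in Canton S (log2 difference -1.11, adjusted p = 0.0535). The second was Npc2e at 1.01 (adjusted p = 0.263). Npc2d followed at 0.82 (adjusted p = 0.485).

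In the same heads all 4 measured photoreceptor markers fell in otd-uvi, with a median log2 difference of -1.34, and oc itself did not pass (27.6, 46.8 and 59.8 in otd-uvi, 71.7 and 56.4 in Canton S, adjusted p = 0.527). The 5 hemocyte markers did not move one way. NimC1 rose (log2 difference 1.93, adjusted p = 0.0242), PPO2 and PPO1 had differences of 1.79 and 0.29 (adjusted p = 0.0886 and 0.673), and crq and Hml had -0.96 and -0.31 (adjusted p = 0.170 and 0.597). The 4 neuronal markers had a median of -0.91 with no call and 3 unadjusted p under 0.05 in limma. The 3-prime over 5-prime log2 signal ratio of actin, GAPDH and eIF-4a, which is higher in degraded RNA, averaged 1.32, 1.68 and 1.88 in otd-uvi and 1.41 and 1.37 in Canton S. The photoreceptor markers and NimC1 were 5 calls among the 66 listed genes. Without otd-uvi replicate 1, 2 or 3 the calls were 1, 2 and 1, and without either Canton S array they were 0. With the replicate number as a block, or with the RNA ratio as a covariate, they were also 0. With this ratio as a covariate, none of the 37 genes passed.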

How the data were processed

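The deposited values are array signal intensities on a linear scale, made by the authors with MAS5 per the submitters' processing notes. Its version, settings and scaling target, and detection calls, are not given in the sources used here. Biotin-labelled RNA was hybridised to 1 array per extraction. Replicate arrays are separate extractions, and their number limits the precision.

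Of 14010 probe sets, 44 controls were left out. Array annotation named 1 gene for 12443 probe sets, and 12393 of these names were updated by gene identifier. The sources used here name no genome build, and RefSeq (Release 6) served only for names and gene order. Neighbours had at most 10 genes between them. Signals were analysed as log2(signal + 8), 8 being the rounded 20th percentile. Strain was the only term of a linear model per probe set (lmFit and eBayes with trend, limma 3.58.1, R 4.3.3), with Benjamini-Hochberg adjustment over 13966 probe sets and a threshold of 0.05. Residual degrees of freedom were 3, and the prior added 4.16. In simulated data with 13966 probe sets, changes were put only into probe sets above the median signal. There 20% of changes of 1 and 82% of changes of 2 on the log2 scale were recovered, and 10 of 112 calls were false. Spread was drawn from the model over all probe sets. Of the 37 family genes, 67.6% had a residual SD above the median of their decile of signal, so these rates are not those of the family.

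The members, gene lists and groupings were chosen with earlier results of these data known. Values per array were given for genes with a low p, bright genes, antennal genes and the Obp19, Obp56, Obp83 and Obp99 rows. Names of some listed genes (Antdh, SP) were brought up to date by hand. OBP classes are from general knowledge. Sequences are not shown. Alternatives were quantile, cyclic loess and median normalization, other offsets, a filter, no trend, the replicate number as a block, an RNA quality covariate, the mean of a gene's probe sets, and leaving out each array. When a Canton S array is left out, the lone one is taken to spread like otd-uvi.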

Additional observations from a re-analysis of the deposited data

How the results depend on the processing

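The count of 0 family genes past the threshold in limma held in 14 of the 15 other settings and was 1 with a floor in place of the added 8, by Obp50e (0.94, adjusted p = 0.0296). The floor replaced both Canton S values of Obp50e by 8, which left them no spread. With the replicate number as a block the count was also 0. Only otd-uvi has a replicate 3, so the block fits that array exactly. Each difference under the block is therefore the one without otd-uvi replicate 3, and these 2 settings are not separate checks of it. The labels give same-numbered samples nothing in common but the number, and 2 pairs can neither show nor exclude a pairing. Same-numbered arrays deviated together at a correlation of -0.0045 and 0.12. Genes with an unadjusted p under 0.05 numbered 1 to 6 over all settings. Over all probe sets the calls were 108, but 1 with the block, 8 with the 3-prime to 5-prime covariate, 39 with the floor, 208 without the dimmest 40%, and 2 to 22 without 1 array. The dim filter left 18 of the 37 genes. Of 66 listed genes 5 passed, but 2 with the floor, 9 without the dimmest 40%, 0 with the block or the covariate, and 0 to 2 without 1 array. The 10 brightest genes were the same 10 by the median over arrays and without any 1 array. Every gene had 1 probe set, so averaging a gene's probe sets changed no difference.

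The sign of the difference held in every setting that gave one for 16 genes, and 9 of these were above the controls on all arrays. Quantile normalization turned Obp44a (0.039), Obp18a (0.033), a10 (0.042), Obp57c (-0.028), Obp19b (-0.049), Obp19a (-0.090), Obp93a (-0.16) and Obp58d (-0.030). Cyclic loess turned Obp44a (0.036), Obp18a (0.012), a10 (0.044), Obp57c (-0.095), Obp19b (-0.018), Obp19a (-0.052), Obp93a (-0.15), Obp58d (-0.075) and Obp58c (-0.013). Median centring turned Obp93a (-0.035). The replicate block turned Obp56e (-0.062), a10 (0.14) and Obp47a (-0.15), the same turns as without otd-uvi replicate 3. The covariate turned Obp56e (-0.090), a10 (0.22), Obp19b (-0.0069), Obp47a (-0.19) and Obp84a (-0.012). Leaving out 1 array at a time gave ranges that crossed 0 for 16 genes: Obp19b -0.22 to 0.56, Obp19c -0.28 to 0.025, Obp19d -0.12 to 0.48, Obp44a -0.10 to 0.087, Obp47a -0.30 to 0.69, Obp56e -0.06 to 0.34, Obp56h -0.54 to 0.39, Obp57c -0.66 to 0.76, Obp73a -0.58 to 0.18, Obp83cd -1.27 to 0.068, Obp85a -0.28 to 0.080, Obp8a -0.30 to 0.24, Obp93a -0.0043 to 0.040, Obp99b -0.52 to 0.064, Obp99d -0.54 to 0.86 and a10 -0.31 to 0.18. The cause of these turns was not tested. The number of arrays and the dim signal of 20 genes limit every value.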

Other observations

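A pair of probe sets named a family gene together with another gene and were not counted in the family. The probe set shared by Obp57d and the cuticle protein gene Cpr57A had 213, 221 and 229 in otd-uvi and 269 and 313 in Canton S, with no overlap between the groups and no way to tell its genes apart. The probe set shared by the neighbours Obp50b and Obp50c had 11.9, 6.95 and 16.3 in otd-uvi and 10.8 and 2.97 in Canton S, and the groups overlapped.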
